A study of Mus musculus with 13 samples.

Results

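Among places that HA-tagged Myf6 occupied in mouse embryonic fibroblasts under both inducing treatments, 2643 regions also held a peak of H3K27me3. They are a subset of 70492 regions, which came from joining 12 peak lists (HA and control IgG) on chromosomes 1 to 19 wherever intervals shared 1 bp. The members were chosen by the presence and absence of peaks. Each had a peak in all 4 HA lists of induced cells, none in the 8 control lists (2 HA lists without doxycycline and 6 IgG lists), and at least 1 bp in common with a peak of the H3K27me3 list. A peak in the 4 induced lists and in no control list was found at 7608 of the 70492 regions (10.8%), called shared sites below. Of these, 2643 (34.7%) met the mark and 4965 did not. Over all 70492 regions the share that met the mark was 26.2%. These shares follow from the rule and are descriptions.

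The cells carried Pax7-CreERT2, Rosa26-LSL-tdTomato and CAG-rtTA3, and a lentivirus in which a doxycycline-responsive TRE promoter drives mouse Myf6 with 3 HA copies. The antibody therefore reads the introduced protein and not the cells' own Myf6. For 24 h the cells were kept in iMPC medium, which contains serum and bFGF. It was given alone, with 2 µg/mL doxycycline (+Myf6), or with the same dose and a trio of compounds named F/R/C: Forskolin (5 µM), RepSox (5 µM) and CHIR99021 (3 µM). Forskolin raises cyclic AMP, RepSox blocks TGF-β receptor signalling. CHIR99021 is an inhibitor of GSK3. CUT&RUN, in which a nuclease bound to an antibody cuts the DNA near the antibody's target, gave 2 HA and 2 IgG libraries for each of the 3 treatments. H3K27me3, used by the study as a positive control antibody, was read in 1 library after induction with the 3 compounds. The state of the mark in +Myf6 cells or before induction is therefore not known from these data. Per the labels' protocols, nuclei of 1 such sample were divided over the 3 antibodies, and the labels do not settle which. The title of the H3K27me3 sample says replicate 1, whereas its library name is that of +Myf6+F/R/C replicate 2 apart from the antibody. No RNA was measured in these libraries, so the label of fibroblast was not checked against marker genes. The labels do not say whether replicates were separate cultures, so the spread between them may be technical.

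Myf6 (MRF4) is a basic helix-loop-helix factor of the family that also holds MyoD, Myf5 and myogenin. These proteins pair with E proteins, bind E-box sequences and switch on muscle genes, and some of them can bind in closed chromatin. H3K27me3 is laid down by Polycomb repressive complex 2 on silent developmental genes, where it often spreads over wide stretches. In fibroblasts many genes of other lineages, muscle among them, are held in this state.

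Depth was estimated from the lowest expected pileup in each list, with its narrowest peak taken as the fragment length. It was 42.4 and 30.6 fragments per 10 kb for HA in +Myf6 replicates 1 and 2, 61.9 and 40.9 for HA in the replicates with F/R/C, and 54.3 for H3K27me3. The HA libraries without doxycycline had 30.6 and 23.7, and the IgG libraries 8.25 to 22.7. Fewer weak peaks can be called in a shallow list, so the absence of a control peak is a weaker statement than its presence. All fold enrichments below are the authors' values at a peak's summit, relative to the expected pileup that the peak caller used there, called the local background below. The sources used here do not state whether IgG served as its control. The summit pileup is the number of fragments over the summit, recovered from the deposited fold and p-value.

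The H3K27me3 peaks at these sites fell into a weak and a strong group. Marked sites are those that meet a peak of either group, and whether weak peaks carry the mark itself was not tested. H3K27me3 summit pileups at the 2643 regions ranged from 5 to 137 fragments with a median of 13, but few lay near the middle. Pileups of 5 to 14 fragments were found at 53.9% of the regions, 20 to 24 fragments at 3.18%, 25 to 29 and 30 to 34 fragments at 1.93% each, and 60 to 64 fragments at 4.20%. The same gap was present among all 32130 H3K27me3 peaks of these chromosomes. Peaks under 25 fragments are called weak here and the others strong, a division set after the values were seen. By it 1693 regions (64.1%, exact 95% interval 62.2 to 65.9%) had a weak H3K27me3 peak and 950 (35.9%) a strong one. In the whole H3K27me3 list, 55.4% of the peaks were weak. All intervals given here are exact Clopper-Pearson intervals and cover counting error only.

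**Figure D1:**
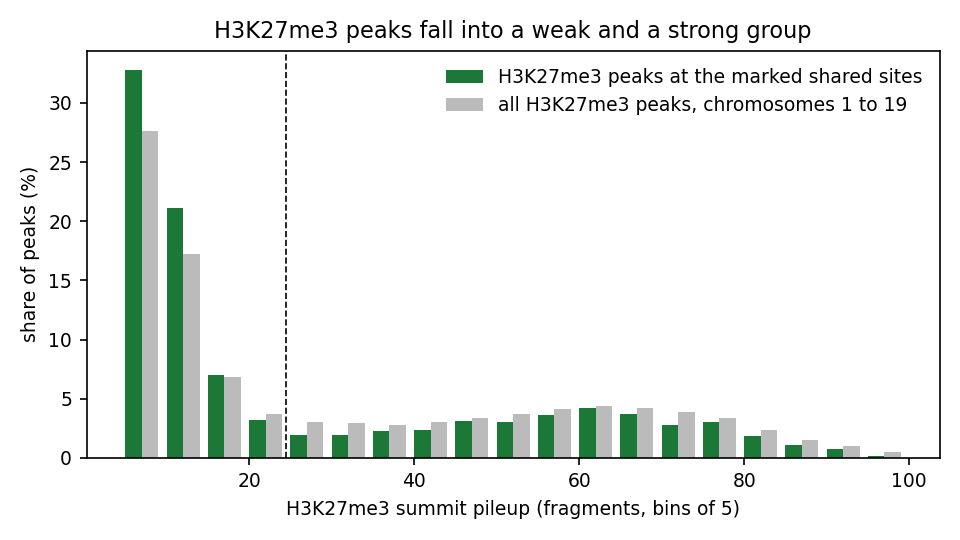
Share of H3K27me3 peaks (y axis, %) by summit pileup in bins of 5 fragments (x axis), for the 2643 regions (green) and for all 32130 peaks of chromosomes 1 to 19 (grey); pileups of 100 or more are not drawn. Both distributions have a low mode under 15 fragments and a broad one near 60, and the dashed line marks the division at 25.

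Weak and strong peaks differed in more than their height. The median width was 342 bp for weak and 1459 bp for strong H3K27me3 peaks, with quartiles of 220 and 512 bp and of 1124 and 1823 bp. The median H3K27me3 fold was 4.98 at weak and 6.99 at strong peaks. At 51.3% of the regions with a weak peak the local background was at the lowest value of the list, taken as the library's mean. This was so at 0 of the 950 regions with a strong peak, where it had a median of 8.26 times the mean. The fragments of the peak itself may count toward its local background, and their part in this value was not tested. All 3 of these measures come from the list that chose the regions, and none of them was tested.

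The weak peaks sat close to the HA summits and the strong ones spread past them. The rule asks for an overlap, so a narrow H3K27me3 peak can only have its summit near the region. A wide peak can meet the region with its summit further off. The distances and shares below therefore follow in part from the median widths of 342 and 1459 bp, and how far was not tested. The mean position of the 4 HA summits lay inside an H3K27me3 peak at 1947 of the 2643 regions, that is 68.0% of those with a weak peak and 83.7% of those with a strong one. Between the H3K27me3 summit and the mean HA summit the median distance was 122 bp for weak and 401 bp for strong peaks, and 178 bp over all. Summits within 100 bp of each other made up 43.5% of the weak and 17.7% of the strong group, while 5.49 and 42.8% were over 500 bp apart. Moved by 500 bp to either side of the HA summit, 10.3 and 10.7% of the weak group and 61.2 and 64.1% of the strong group were still inside an H3K27me3 peak. At 1 kb the shares were 1.48 and 1.95% for the weak group and 33.9 and 34.9% for the strong one. Strong peaks covered 44.6% of their regions from end to end, and weak peaks covered 4.37%. The 4 HA lists placed their own summits within a median of 230 bp of each other in the weak and 234 bp in the strong group, so the HA summits were as scattered in both.

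**Figure D2:**
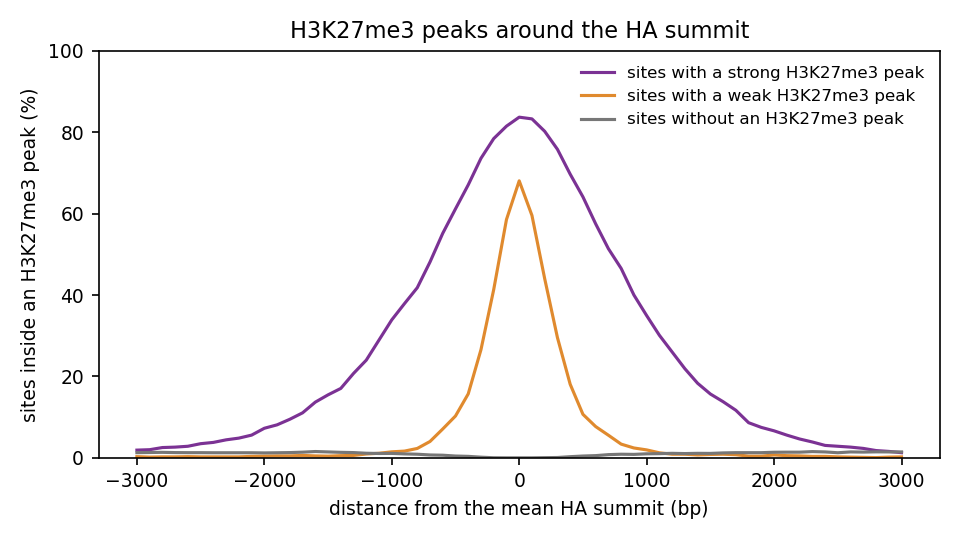
Share of sites that lie inside an H3K27me3 peak (y axis, %) at each distance from the mean HA summit (x axis, bp), for the 950 sites with a strong peak, the 1693 with a weak peak and the 4965 shared sites without one. At the summit the shares are 83.7, 68.0 and 0%, and at 1 kb they are near 34, under 2 and near 1%. The 0% is set by the rule, as these sites overlap no H3K27me3 peak.

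Marked sites rarely lay in runs of H3K27me3 peaks. In 82.6% of the regions (interval 81.1 to 84.1%) no other H3K27me3 summit was within 5 kb, against 72.0% over all H3K27me3 peaks. The share was 84.9% for weak peaks at the regions and 78.7% for all weak peaks, and 78.5% for strong peaks at the regions and 63.7% for all strong ones. Only 3 regions had 4 or more H3K27me3 summits within 5 kb. A single H3K27me3 peak was met by 2512 regions, 2 peaks by 130 and 3 peaks by 1. Wide domains can be cut into several narrow peaks or missed by narrow calling, so these counts describe the list and not the full extent of the mark. Among the shared sites without the mark, 1.77% had an H3K27me3 summit within 1 kb and 28.3% within 10 kb.

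The share of regions with a weak H3K27me3 peak was larger the more induced HA lists held the region, and the share with a strong peak had no steady order. Weak H3K27me3 peaks lay at 12.8% of all 70492 regions and strong ones at 13.4%. Regions found in 1 induced HA list and no control list had a weak peak in 8.15% of 35049 cases, those in 2 lists in 13.04%, those in 3 lists in 16.3% and those in all 4 in 22.3% (interval 21.3 to 23.2%). For strong peaks the same 4 shares were 13.02, 13.6, 14.2 and 12.5% (interval 11.8 to 13.3% for 4 lists). These intervals count regions, which are not replicates, and H3K27me3 has 1 library, so the order of the shares is a description. The order of the strong shares depends on the division: at 15 fragments they were 14.7, 16.1, 16.9 and 16.01%, with 1 list the lowest, and at 35 fragments 11.9, 12.3, 12.7 and 11.1%, with 4 lists the lowest. Regions in more lists were also wider, with medians of 217 bp for 1 list and 656 bp for 4. The mean HA summit alone is a point without width, though it averages 1 summit for 1 list and 4 summits for 4 lists. At this point weak peaks were met in 6.16, 9.63, 11.7 and 15.1% and strong peaks in 12.1, 12.02, 12.5 and 10.45%. The part of this averaging was not tested. Among regions of 500 to 800 bp the weak shares were 10.5, 13.3, 16.4 and 21.3%, and the strong shares 10.6, 12.8, 14.2 and 11.1%, with 1 list the lowest.

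Where a control list had a peak beside all 4 induced HA lists, both kinds of H3K27me3 peak were more frequent than at the shared sites. Regions with all 4 induced HA peaks and at least 1 control peak, which the rule leaves out, had a weak H3K27me3 peak in 37.1% of 2879 cases (interval 35.3 to 38.9%) and a strong one in 16.8% (15.4 to 18.2%). Where all 8 control lists had a peak, 48.5 and 43.6% of 204 regions had a weak and a strong one. Weak peaks were at 30.9 and 27.9% of the regions of the HA lists without doxycycline, and strong peaks at 11.7 and 10.9%. In the 6 IgG lists the weak share ran from 13.5 to 37.8% and the strong share from 17.6 to 38.8%. Against the 22.3% at shared sites, the weak share was higher in both uninduced HA lists and in the IgG lists without doxycycline and of +Myf6 replicate 1. It was 21.2% for IgG in +Myf6 replicate 2, and 22.35 and 13.5% for IgG in the libraries with F/R/C, so the IgG lists did not all stand on one side. The strong share was above the 12.5% of shared sites in all 6 IgG lists and below it in both uninduced HA lists, and it exceeded the weak share in 4 of the 6 IgG lists. Regions with a peak in control lists only went the other way, with a weak peak in 3.28% of 2534 cases (interval 2.62 to 4.04%) and a strong one in 7.97% (6.95 to 9.10%). The part of control signal in the weak H3K27me3 peaks was not tested. The rule removed 1550 of 4193 regions with 4 HA peaks and the mark, 1057 of them only because of the HA lists without doxycycline.

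**Figure D3:**
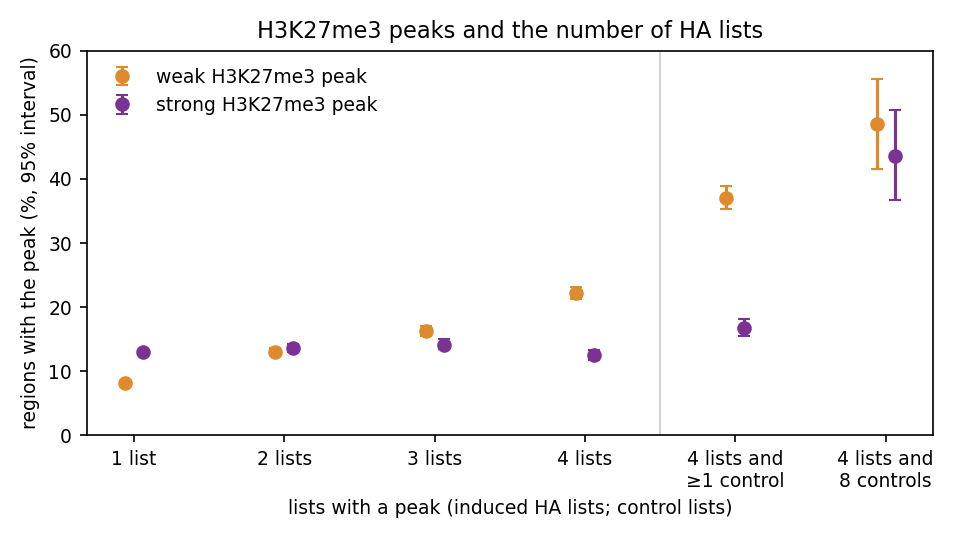
Share of regions with a weak (orange) or strong (purple) H3K27me3 peak (y axis, %) by the lists that hold a peak (x axis), with exact 95% intervals. From 1 to 4 induced HA lists without a control peak, the weak share goes from 8.15 to 22.3% and the strong share from 13.02 to 12.5%, and both are higher where all 8 control lists have a peak.

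Sites with a strong mark had a slightly lower HA summit fold than the other shared sites, in classes set after the values were seen. At the regions with a strong H3K27me3 peak the median HA summit fold was 5.49 and 5.58 in +Myf6 replicates 1 and 2 and 5.58 and 5.41 in +Myf6+F/R/C replicates 1 and 2. At those with a weak peak it was 5.71, 5.82, 5.90 and 5.69 in the same order, and at the 4965 shared sites without the mark 5.82, 5.82, 6.02 and 5.53. The strong group was the lowest of the 3 in each of the 4 libraries, while the weak group lay below the unmarked sites in 2, level with them in 1 and above them in 1. On the log2 scale, strong minus weak was -0.057, -0.060, -0.080 and -0.072, with a mean of -0.067 ± 0.011 (SD, n = 4 libraries; exact sign flips, two-sided, p = 0.125, the smallest that 4 libraries allow). Strong minus unmarked had a mean of -0.071 ± 0.033 (exact sign flips, p = 0.125, n = 4), lower in 4 of 4 libraries. Weak minus unmarked had a mean of -0.0036 ± 0.032 (exact sign flips, p = 1, n = 4). In summit pileup over the library's mean pileup, strong minus unmarked was -0.22, 0, -0.34 and -0.11 on the log2 scale. It was lower in 3 libraries and higher in 0 (exact sign flips, p = 0.25, n = 4). By this measure strong minus weak was lower in 4 libraries, with a mean of -0.18 ± 0.070 (exact sign flips, p = 0.125, n = 4).

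Over all 2643 regions against the 4965 unmarked sites the difference was small and went with the replicate number. It was -0.052 and -0.022 on the log2 scale in +Myf6 replicates 1 and 2 and -0.058 and 0.014 in +Myf6+F/R/C replicates 1 and 2. The mean of -0.030 ± 0.033 did not pass 0.05 (exact sign flips, p = 0.25, n = 4 libraries, lower in 3 of 4). Replicates 1 had a mean of -0.055 and replicates 2 of -0.0041. In terms of rank within a list, the median member stood at percentile 64.2 in +Myf6 replicate 1 and 70.3 in +Myf6+F/R/C replicate 1, and the median unmarked site at 69.5 and 76.9. In replicates 2 the members stood at 71.9 and 70.6 and the unmarked sites at 72.3 and 69.4. The single library in which members were higher was +Myf6+F/R/C replicate 2. The replicates 1 were also deeper than the replicates 2 of their treatment. Apart from the antibody, the library name of the H3K27me3 sample is that of +Myf6+F/R/C replicate 2. Depth, replicate number and a possible shared origin with the H3K27me3 library cannot be told apart here.

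**Figure D4:**
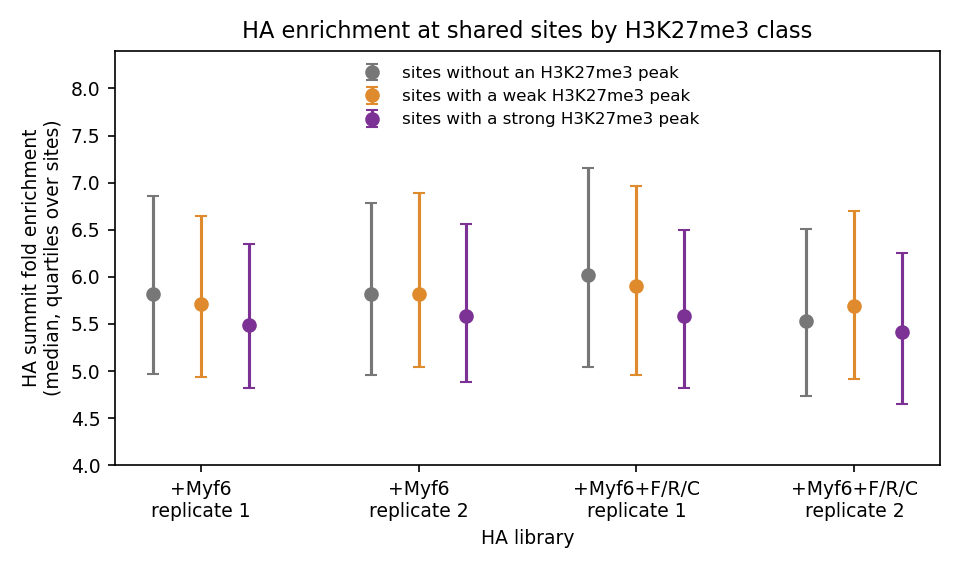
HA summit fold enrichment over the local background (y axis, starting at 4) in the 4 HA libraries of induced cells (x axis). Points are medians over sites and bars run from the lower to the upper quartile; the medians with a strong H3K27me3 peak are the lowest in each library, and the quartiles of all 3 groups overlap.

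The strongest HA sites seldom had a strong H3K27me3 peak. With the 7608 shared sites ordered by their mean rank over the 4 lists, 6.44% of the strongest decile (interval 4.80 to 8.42%) and 18.5% of the weakest decile (15.8 to 21.5%) had a strong peak. The weak peaks showed no such order, with 22.3% in the strongest and 20.9% in the weakest decile. Ordered by each list alone, the strong share in the strongest decile was 6.31 and 9.33% for +Myf6 replicates 1 and 2 and 5.52 and 7.10% for +Myf6+F/R/C. In the weakest decile it was 16.0 and 13.4% for +Myf6 and 18.3 and 14.3% for +Myf6+F/R/C, so it was higher there in 4 of 4 lists. The weak share was lower in the weakest decile in both replicates 2 (20.5 against 25.1% and 16.4 against 23.7%) and higher in both replicates 1. Across the 2643 regions, HA and H3K27me3 summit folds were nearly unrelated, with Spearman's rho of 0.035, 0.040, 0.022 and 0.067 for the 4 libraries in the same order. For the pileups rho was -0.072, -0.019, -0.13 and -0.083. These are correlations across regions, which are not independent replicates.

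**Figure D5:**
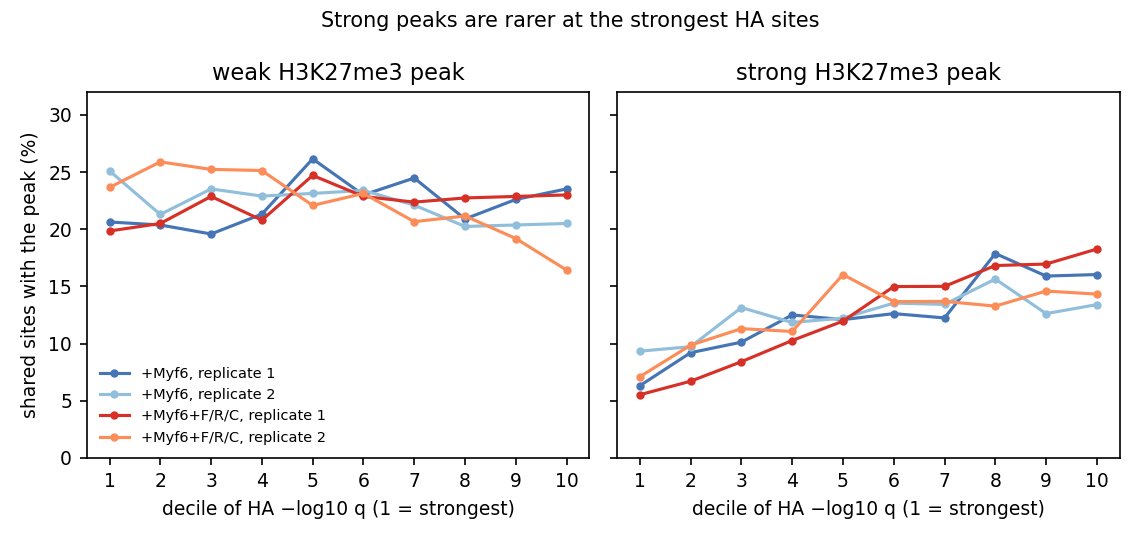
Share of shared sites with a weak (left) or strong (right) H3K27me3 peak (y axis, %) by decile of HA −log10 q within the shared sites (x axis, 1 the strongest), drawn for each of the 4 HA libraries of induced cells. Strong peaks lie between 5.52 and 9.33% in the strongest decile and between 13.4 and 18.3% in the weakest.

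The 10 regions with the best mean HA rank are named first. Of these, 9 had a weak H3K27me3 peak, as did 64.1% of all 2643 regions. The best-ranked region, chromosome 18 at 10735269 to 10736732, showed HA folds of 10.5 and 9.05 in +Myf6 replicates 1 and 2 and 8.36 and 8.33 in +Myf6+F/R/C. Its H3K27me3 peak had a pileup of 13 fragments, a fold of 3.83 and a summit 417 bp from the HA summit. The region on chromosome 9 at 114582024 to 114582824 was the most even of the first 3, with HA folds of 11.6, 11.4, 10.7 and 11.6 in the same order of libraries. Here the H3K27me3 fold was 8.68 and the summits lay 36.5 bp apart.

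Next were regions on chromosome 17 at 47832558 to 47833280 (HA folds 11.9, 8.50, 10.97 and 7.69) and at 12546667 to 12547325 (13.9, 11.5, 8.997 and 9.63). The first of these was higher in replicate 1 of both treatments. The second had lower values with the compounds, and its H3K27me3 summit lay 12 bp from the mean HA summit. The fifth, on chromosome 6 at 116263619 to 116264570, had HA folds of 8.80, 9.90, 7.67 and 6.83. The sixth, on chromosome 14 at 25978450 to 25980068, was the exception with a strong H3K27me3 peak (61 fragments, 1247 bp wide). It had HA folds of only 5.52, 6.81, 5.52 and 5.62 but HA pileups of 47, 34, 74 and 52 fragments, and its summits lay 626 bp apart.

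The remaining 4 of the 10 had H3K27me3 pileups of 7 to 10 fragments. In order of rank they were found on chromosome 11 at 114734777 to 114735636, on chromosome 5 at 114934176 to 114934840, on chromosome 13 at 58563221 to 58564092 and on chromosome 7 at 120597811 to 120598830. The region on chromosome 13 had the highest HA fold of the 10, 14.7 in +Myf6 replicate 1, with 12.4, 12.5 and 7.79 in the others. All 10 had no second H3K27me3 summit within 5 kb.

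The 10 regions with the highest H3K27me3 fold all had strong peaks, and the best HA rank among them was 483rd of the 2643. A peak under 25 fragments cannot reach the highest folds, because the expected pileup has a lowest value. The highest fold of a weak peak was 13.2 in the whole list and 12.1 at the members. The class of these 10 therefore follows largely from how they were picked. First was a region on chromosome 11 at 45817317 to 45817805, with an H3K27me3 fold of 15.5 and a pileup of 30 fragments. Its HA folds were 5.54 and 7.47 in +Myf6 and 5.81 and 7.04 in +Myf6+F/R/C, higher in replicate 2 of both. An H3K27me3 fold of 14.7 was found at the next 3, on chromosome 14 at 67425769 to 67426617, on chromosome 1 at 46105745 to 46105939 and on chromosome 10 at 80872812 to 80873320. The region on chromosome 1 was 195 bp wide, the narrowest of all 2643, and lay 291 bp from the summit of a 700 bp wide H3K27me3 peak.

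The fifth, on chromosome 13 at 21690237 to 21690900, had the best HA rank of these 10, 483rd of 2643, with HA folds of 8.49, 5.88, 7.15 and 10.3. At the sixth, on chromosome 5 (100053932 to 100054560), the H3K27me3 summit and the mean HA summit coincided within 0.25 bp, and the HA folds were 5.88, 10.3, 5.85 and 9.68. The last 4 had H3K27me3 folds from 12.9 to 14.1. They were found on chromosome 9 at 122139799 to 122140639, on chromosome 19 at 34639602 to 34640112, on chromosome 10 at 88036694 to 88037356 and on chromosome 15 at 28158797 to 28159556. The HA rank of the 10 among the members ran from 483 to 2579.

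With and without the compounds, HA enrichment at the marked sites differed by less than the spread between replicates. The median log2 HA fold over the 2643 regions was 2.50 ± 0.021 with +Myf6 and 2.51 ± 0.034 with +Myf6+F/R/C (SD, n = 2 each), a difference of 0.0028 (exact permutation p = 1, two-sided; the smallest possible is 0.333). Within replicate 1 the difference was 0.042 and within replicate 2 -0.037. For the weak group it was 0.0080, for the strong group -0.0098 and for the unmarked sites -0.012 (exact permutation p = 1 for each, n = 2 a group). Scaled by depth, as summit pileup over the library's mean pileup, all groups were lower with the compounds. The depth-scaled log2 difference was -0.24 at the marked sites, -0.15 in the weak group, -0.26 in the strong group and -0.15 at the unmarked sites. Exact permutation p was 0.667 for the marked sites and both of their groups and 0.333 for the unmarked ones (n = 2 a group). The direction for the marked sites therefore depends on the scale. Median depth-scaled pileups at the marked sites were 19.03 and 24.4 in +Myf6 replicates 1 and 2, and 16.7 and 19.9 in +Myf6+F/R/C. They were highest in the shallowest of the 4 libraries and lowest in the deepest. Within each replicate number the library with F/R/C was the deeper, so depth and treatment cannot be told apart on this scale.

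Site by site, both +Myf6+F/R/C libraries were above both +Myf6 libraries in HA fold at 443 of 2643 regions (16.8%) and below both at 496 (18.8%). Over all 7608 shared sites the same shares were 15.9 and 18.6%, so the marked sites were near the background. In depth-scaled pileup 206 regions (7.79%) were above and 755 (28.6%) below, where the shares over all shared sites were 9.92 and 28.6%. Depth and treatment cannot be told apart in this measure. By the same measure 50 of 950 regions with a strong peak (5.26%, interval 3.93 to 6.88%) were above and 312 (32.8%, 29.9 to 35.9%) below, and 156 (9.21%, 7.88 to 10.7%) and 443 (26.2%) of the 1693 with a weak peak.

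The 5 regions with the largest higher values under the compounds all had weak H3K27me3 peaks, as did 64.1% of all 2643 regions. In HA fold, 294 of the 443 regions above in both +Myf6+F/R/C libraries had a weak peak, and 294 of the 496 below. On chromosome 4 at 106844875 to 106845485 the HA folds were 4.20 and 4.02 with +Myf6 and 5.90 and 10.2 with +Myf6+F/R/C, a ratio of 1.89. Its HA pileups were 8, 5, 14 and 20 fragments, and its H3K27me3 summit lay 20.8 bp from the HA summit. On chromosome 2 at 118610044 to 118610556 the folds were 5.35, 4.69, 6.83 and 10.9. In both regions +Myf6+F/R/C replicate 2 was the highest library.

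The other 3 were on chromosome 14 (54464439 to 54465714 and 20855068 to 20855594) and chromosome 2 (6260694 to 6261410), with ratios of 1.73, 1.71 and 1.71. In depth-scaled pileup the first of these 3 no longer separated the treatments (29.3 and 20.3 against 29.5 and 24.2), and the other 4 of the 5 did. These regions were picked for their difference, which is a description without a test.

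Of the 5 regions with the largest lower values, 2 had a strong H3K27me3 peak, as did 35.9% of all 2643 regions. On chromosome 10 at 69708045 to 69708677 the HA folds were 8.73 and 8.27 with +Myf6 and 6.14 and 3.46 with +Myf6+F/R/C, a ratio of 0.542. On chromosome 1 at 135935573 to 135936044 they were 7.66, 8.31, 5.01 and 3.92, beside a strong H3K27me3 peak of 36 fragments. Both were lowest in +Myf6+F/R/C replicate 2. A further region of chromosome 1, at 135706606 to 135707242, was among the 5 as well, with folds of 5.70, 6.05, 3.56 and 3.33.

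The folds were 6.25, 7.39, 3.43 and 4.18 on chromosome 7 at 137033784 to 137034335. They were 6.56, 8.31, 3.79 and 4.77 on chromosome 13 at 75988016 to 75988653, whose H3K27me3 peak reached 83 fragments over 1902 bp and was the widest among all regions named for a rank or a difference. All 5 were also lower with the compounds in depth-scaled pileup in both libraries.

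Strong-marked sites were the most scattered in the genome. Another shared site lay within 10 kb of 4.00% of the regions with a strong peak (interval 2.85 to 5.45%), of 11.2% with a weak peak (9.76 to 12.8%) and of 10.6% without the mark (9.79 to 11.5%). The median distance to the nearest shared site was 71072 bp, 47727 bp and 54609 bp in this order. A control peak lay within 10 kb of 8.11, 9.69 and 10.2%, where the intervals of the strong and unmarked groups overlap (6.45 to 10.0% and 9.40 to 11.1%). By chromosome, the share of shared sites with any H3K27me3 peak ran from 26.9% on chromosome 18 (interval 22.0 to 32.2%) to 43.6% on chromosome 11 (38.9 to 48.5%). The strong share ran from 8.25% on chromosome 13 (5.82 to 11.3%) to 18.7% on chromosome 7 (15.1 to 22.6%), and the weak share ran from 17.4 to 26.6%. In the H3K27me3 list itself, strong peaks made up 40.1% on chromosome 18, 48.4% on chromosome 11, 45.4% on chromosome 13 and 49.5% on chromosome 7.

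At the edge of the rule, the smallest overlaps with an H3K27me3 peak were 2 bp on chromosome 9 (31944964 to 31945409), 5 bp on chromosome 2 (163094884 to 163095806) and 9 bp on chromosome 7 (63588641 to 63588945). Just outside it, shared sites missed an H3K27me3 peak by 5 bp on chromosome 2 (153021066 to 153021484), 8 bp on chromosome 14 (31218170 to 31218709) and 17 bp on chromosome 6 (146861392 to 146861880). In all, 17 members overlapped by under 50 bp and 9 unmarked sites lay under 50 bp from a peak.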

How the data were processed

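CUT&RUN peak lists of 13 libraries were used. The submitters' processing notes name MACS2, deepTools and DiffBind and build GRCm39 (aligner, versions and options: not given in the sources used here). Every library has a list of its own. The authors deposited for each peak a fold (a ratio to the expected pileup), −log10 p and −log10 q values, a score (10 times the −log10 q as a whole number) and a summit position.

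Pileups and expected pileups were recovered from fold = (k + 1)/(λ + 1) and p as the Poisson tail above k, matching the deposited −log10 p within 0.002 for at least 99.9% of peaks in every list. On 3000 peaks simulated with these same formulas 100% were recovered, which checks the code and not the formulas. The simulated λ did not reach down to the lowest λ of the shallowest lists. The lowest λ was taken as the library's mean pileup. Spike-in nuclei were added, per the labels' protocols, and no spike-in values were used. Where a region held several peaks of a list, the one with the best q was used. Medians were compared over libraries with exact permutation or sign-flip tests, two-sided. Regions were described by rank, H3K27me3 fold and treatment difference, the first 10, 10 and 5 each way. The planned choice by gene lists was not made.

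The members and lists were chosen with earlier results of these data known. The gene tables at hand were of another mouse build, so gene positions and sequences are not analysed here. Python 3.11.15, numpy 2.4.6, pandas 2.3.3 and scipy 1.17.1 were used.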

Additional observations from a re-analysis of the deposited data

How the results depend on the processing

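The number of marked shared sites, 2643, followed the settings. It was 785 with −log10 q of at least 5 in the 4 HA lists, 1567 with at least 50% of the region covered by the mark, 4193 without control lists, and 2988 to 3429 when any 1 HA library was left out. The marked share, 34.7%, was 23.6% with −log10 q of at least 5 for H3K27me3, 20.6% with at least 50% covered, 25.6% at the HA summit, 37.5% with IgG controls only, 39.98% without controls, and 32.8 to 34.96% without any 1 HA library. The log2 HA difference between treatments, 0.0028, turned to -0.029 at −log10 q of at least 5, to -0.24 per depth and to -0.0098 at strong peaks, and ran from -0.022 (without +Myf6+F/R/C replicate 1) to 0.027 (without +Myf6+F/R/C replicate 2); it was -0.012 without +Myf6 replicate 1. With the replicate block it was 0.0028 (exact sign flips, p = 1, n = 2 pairs). Replicate differences of the 2 treatments correlated with r = 0.11 over the members, and the numbers were not taken as pairs. The mean of marked minus unmarked stayed below 0 under each of the 10 alternatives run, though several of these reuse the same libraries. It was -0.0036 with weak peaks only. Per depth it was -0.035, with 2 libraries lower and 1 higher (exact sign flips, p = 0.75). The median summit distance, 178 bp, was 210 to 215 bp (214, 210, 215 and 210) with the summit of a single HA list and 219 bp at −log10 q of at least 5. Lone H3K27me3 peaks were 86.4% within 2 kb and 61.7% within 10 kb. A division at 15 or 35 fragments gave 53.9 or 67.9% weak peaks. With these divisions the weak share at regions of 1 and 4 HA lists was 6.43 and 18.7%, or 9.30 and 23.6%, and the strong share 14.7 and 16.01%, or 11.9 and 11.1%, against 13.02 and 12.5% at 25 fragments, so its direction turned at 15. The cause of these changes was not tested. The class division, the depth scaling of marked against unmarked sites and the classwise comparisons were added after the data were seen. The planned settings on gene starts and E-boxes were not run. H3K27me3 has 1 library, so no spread between libraries bears on the mark.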

Other observations

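Most marked sites had no other marked site close by. Another shared site, marked or not, lay within 10 kb of 8.63% of the marked and 10.6% of the unmarked sites. Runs are given for the marked sites only, so they have no background here. With gaps of up to 10 kb between HA summits, 2535 of the 2643 stood alone, 51 runs held 2 and 2 runs held 3. The runs of 3 lay on chromosome 8 at 84466469 to 84475772 and on chromosome 7 at 109585483 to 109602851. Each had 1 strong and 2 weak H3K27me3 peaks. They were chosen after their values were seen.

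Around the marked sites, H3K27me3 peaks were scarce at 4 kb and more frequent at 10 kb. At 4 kb to either side, 0.189 and 0.530% of the marked and 1.47 and 1.51% of the unmarked shared sites were inside an H3K27me3 peak. At 10 kb the shares were 2.42 and 2.61% for the marked and 1.35 and 1.33% for the unmarked ones. The part of the caller's local background in this spacing was not tested.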
